A study of Mus musculus with 2 samples.

Results

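Transcription factors that mark pancreatic endocrine lineages and their progenitors, Irx1, Irx2, Pou3f4, Hhex, Etv1, Neurog3, Sox4 and Sox9, were followed through the islet cell types of WT mice and of mice fed a high-fat diet (HFD). These 8 genes were chosen by symbol, and all 8 were among the 31053 genes counted. Their messenger RNA was measured by droplet single-cell RNA sequencing, in which each captured transcript carries a unique molecular identifier (UMI), and levels are given as counts per 1000000 UMIs of a cell class (CPM). The WT library was made from islets of male C57/B6 mice for which the labels name no diet, and the HFD library from male C57/B6 mice that received a diet with 60% of its energy as fat for 10 weeks, beginning at 6 weeks of age. All mice were 16 weeks old, and the labels name no transgene. Each library pooled the islets of 4 mice, so there was 1 library in each group, no test between diets was possible, and diet, islet preparation and library cannot be told apart. All intervals are 95% intervals and cover counting error only.

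Endocrine cells of the pancreas arise from Sox9-expressing ductal progenitors, in which a pulse of Neurog3, a basic helix-loop-helix factor, starts the endocrine programme. Sox4, an HMG-box factor, acts with and after Neurog3. Lineage factors then separate the cell types: the homeodomain factors Irx1 and Irx2 and the POU factor Pou3f4 belong to glucagon-producing α cells, and the homeodomain factor Hhex is needed for somatostatin-producing δ cells. Etv1 is an ETS-domain factor, a family whose members respond to growth factor signalling. In the mature islet, Neurog3 and Sox9 are usually described as low or absent in β cells.

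Of 3895 WT and 8951 HFD barcodes, 2485 and 6662 were kept, with medians of 23914 and 11008 UMIs per cell. The 2 libraries shared 3 of these barcodes. Clusters, built without the 8 factors, were named from marker genes, which gave 1789 WT and 5547 HFD β-like cells, 53 and 162 α-like cells, and 61 and 163 δ-like cells. A further cluster of 15 and 23 cells led by Ppy, the pancreatic polypeptide gene, did not reach the 3 detected γ-cell markers required for a name and is called the Ppy-led cluster. All 6 α-cell markers and all 7 δ-cell markers had UMIs in their class in both libraries, some of them few. The naming rule detected 5 of the α-cell markers in each α-like cluster and 4 of the δ-cell markers in each δ-like cluster. The α-like cells of the libraries fell mostly into different clusters, 47 of the 53 WT cells in one and 161 of the 162 HFD cells in another. The δ-like class was not pure: Gcg, the glucagon gene, made up over 1% of UMIs in 9 WT and 46 HFD δ-like cells and was the most abundant hormone in 5 and 40 of them. Levels in α-like and δ-like cells are therefore also given for cells without a second hormone, that is with other hormones at or below 1% of UMIs and insulin at or below 5%, with Ppy allowed in δ-like cells because 49 of the 61 WT and 124 of the 163 HFD δ-like cells carried it above 1%.

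Irx1 and Irx2 are neighbours on mouse chromosome 13 (mm10), Irx1 at chr13:71957921-71963723 on the minus strand and Irx2 at chr13:72628820-72634198 on the plus strand, with 665 kb and no protein-coding gene between them. Hhex lies at chr19:37434810-37440731, Neurog3 at chr10:62133090-62134763, Etv1 at chr12:38779380-38870484, Pou3f4 at chrX:110814280-110817207 and Sox9 at chr11:112782224-112787760, all on the plus strand, and Sox4 at chr13:28948919-28953713 on the minus strand. No gene overlapped a member on its own strand. Neurog3 and Sox4 each overlapped 1 gene on the opposite strand, Fam241b and Gm26735, and a 3-prime library keeps the strand. RefSeq promoters (GRCm38.p6, the build of mm10) were at hand for 6 of the 8 genes and not for Irx1 and Sox9. The bases just upstream of the first exon are shown for an α-cell factor and for the pair of factors that were highest in δ-like cells, in lower case with the E-box, CANNTG, the site of basic helix-loop-helix factors such as Neurog3, in capitals.
Irx2, chr13:72628570-72628819, plus strand: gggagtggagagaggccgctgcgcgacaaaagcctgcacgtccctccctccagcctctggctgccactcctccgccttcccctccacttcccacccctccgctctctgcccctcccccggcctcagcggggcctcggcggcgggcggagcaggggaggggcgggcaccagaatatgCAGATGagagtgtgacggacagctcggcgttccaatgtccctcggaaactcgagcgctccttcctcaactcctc
Hhex, chr19:37434591-37434809, plus strand: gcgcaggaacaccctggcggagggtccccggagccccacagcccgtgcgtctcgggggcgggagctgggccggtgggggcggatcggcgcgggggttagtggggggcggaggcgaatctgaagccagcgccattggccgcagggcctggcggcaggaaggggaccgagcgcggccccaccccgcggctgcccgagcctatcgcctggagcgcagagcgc
Neurog3, chr10:62132840-62133089, plus strand: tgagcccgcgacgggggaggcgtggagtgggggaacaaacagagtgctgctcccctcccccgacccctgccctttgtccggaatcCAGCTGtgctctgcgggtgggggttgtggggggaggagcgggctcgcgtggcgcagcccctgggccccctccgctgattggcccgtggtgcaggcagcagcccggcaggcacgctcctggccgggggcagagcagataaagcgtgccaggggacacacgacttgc
Read on both strands, Irx2 and Neurog3 each had 1 E-box in 250 bases and Hhex none in 219 bases. Of 32851 promoters, 66.2% held an E-box in 250 bases and 62.0% in 219 bases. The N-box CACNAG, a site of Hes repressors, occurred 1 time upstream of Irx2 and not in the other windows, against 36.7% of promoters over 250 bases. The Iroquois site ACANNTGT, which contains an E-box, was in none of the 3 windows and in 6.31% of promoters over 250 bases. A match describes letters and not binding.

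Irx1 and Irx2 were the α-cell factors of these islets. Irx1 stood at 105 CPM in WT α-like cells (interval 80.0 to 135; 60 UMIs in 28 of 53 cells) and at 82.6 CPM in HFD α-like cells (63.3 to 106; 62 UMIs in 48 of 162 cells). Irx2 stood at 75.2 CPM in WT α-like cells (54.4 to 101; 43 UMIs in 28 cells) and at 75.9 CPM in HFD α-like cells (57.5 to 98.4; 57 UMIs in 44 cells). The intervals of the 2 libraries overlapped for both genes. The HFD to WT ratio was 0.787 for Irx1 (0.543 to 1.14) and 1.01 for Irx2 (0.668 to 1.54), so a change of 2-fold or more in either direction lay outside both intervals.

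Outside α-like cells the Iroquois pair was low. In δ-like cells Irx1 had 5 WT and 9 HFD UMIs and Irx2 had 8 and 16, but these came almost wholly from cells that also carried Gcg or insulin. Without such cells, Irx1 had 0 UMIs in 46 WT and in 112 HFD δ-like cells, and Irx2 had 0 and 2. On that footing Irx1 was at least 15.8-fold higher in α-like than in δ-like cells of the WT library and at least 10.7-fold higher in the HFD library, against a floor of 3 counts per class. The Ppy-led cluster held 4 WT and 0 HFD UMIs of Irx1 and 5 and 1 of Irx2, at class totals where 3 counts are 9.37 and 22.3 CPM. Irx2 had no UMI in ductal-like, endothelial-like, fibroblast-like or immune-like cells of either library, and Irx1 had 4 WT and 2 HFD UMIs in fibroblast-like cells and 1 in endothelial-like cells of each library. Among the classes below α-like cells, the intervals of δ-like cells and the Ppy-led cluster overlapped for both genes.

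The 2 Iroquois factors were found in the same α-like cells in part. In the WT library 20 α-like cells had UMIs of both, 8 of Irx1 alone, 8 of Irx2 alone and 17 of neither. In the HFD library the numbers were 18, 30, 26 and 88. Cells with both were deeper, with medians of 10933 against 8680 UMIs for cells with neither in the WT library and 4666 against 3944 in the HFD library. The share of α-like cells with a UMI depends on depth. For Irx1 it was 52.8% in WT and 29.6% in HFD cells as sequenced, and 19.2% (9.63 to 32.5) and 10.8% (6.39 to 16.7) after every cell was thinned to 2000 UMIs. Immune-like cells, which should lack the gene, had Irx1 in 0 of 53 WT and 0 of 88 HFD thinned cells, which allows shares of up to 5.66% and 3.41%, at unthinned medians of 4719 and 1684 UMIs per cell against 10147 and 4238 in α-like cells.

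Pou3f4, which binds the glucagon promoter, was nearly silent in both libraries. It had 7 UMIs in 3 WT α-like cells, 4 of them in 1 cell (12.2 CPM, 4.92 to 25.2), and 2 UMIs in 2 HFD α-like cells (2.66 CPM, 0.323 to 9.62). WT β-like cells held 5 UMIs in 5 cells, and HFD β-like cells held none of 75660357 UMIs, which allows up to 0.0397 CPM. With so few counts no difference between libraries could be read.

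Hhex was a δ-cell gene among endocrine cells, and was also high in duct. It reached 199 CPM in WT δ-like cells (167 to 235; 139 UMIs in 46 of 61 cells) and 130 CPM in HFD δ-like cells (106 to 159; 96 UMIs in 67 of 163 cells). Ductal-like cells carried it at 195 CPM (169 to 225) and 140 CPM (93.1 to 202), and endothelial-like cells at 54.6 CPM (43.0 to 68.3) and 27.8 CPM (15.9 to 45.2). The ductal to δ ratio was 0.983 in the WT library (0.786 to 1.23) and 1.07 in the HFD library (0.679 to 1.65). Against δ-like cells without a second hormone it was 0.626 in WT (0.493 to 0.798) and 0.709 in HFD (0.440 to 1.11). Duct was then lower beyond counting error in the WT library alone. In cells without a second hormone Hhex had 312 CPM in δ-like cells of the WT library and 198 CPM in those of the HFD library, and α-like cells then had 0 UMIs in 36 WT and 117 HFD cells, which put δ-like cells at least 39.9-fold and 35.5-fold higher. In the Ppy-led cluster Hhex had 4 WT and 0 HFD UMIs.

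The HFD library had less Hhex per UMI than the WT library in δ-like cells (ratio 0.656, 0.501 to 0.857) and in endothelial-like cells (0.510, 0.278 to 0.882), and the ratio was 0.717 in ductal-like cells (0.464 to 1.07). The class makeup moved with the δ-like values, since 24.6% of WT and 31.3% of HFD δ-like cells carried a second hormone. The part of these cells in the ratio of all δ-like cells was not tested, but Hhex was also lower in HFD among the cells without one (312 CPM, 257 to 376, against 198 CPM, 154 to 250). The difference depended on the clustering, since at Leiden resolution 1 the δ-like class held Hhex at 119 CPM in the WT and 115 CPM in the HFD library.

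Neurog3, the initiator of endocrine differentiation, had its highest level in δ-like cells. There were 20 UMIs in 11 of 61 WT δ-like cells (28.6 CPM, 17.5 to 44.2) and 10 UMIs in 10 of 163 HFD δ-like cells (13.6 CPM, 6.51 to 25.0). The α-like cells had 1 WT and 0 HFD UMIs, the Ppy-led cluster, endothelial-like, fibroblast-like and immune-like cells had none, and ductal-like cells had 1 WT UMI. Relative to β-like cells the level in δ-like cells was 87.0-fold higher in the WT library (44.1 to 172) and 46.7-fold higher in the HFD library (19.7 to 103). The level was similar without mixed cells, as δ-like cells without Gcg or insulin held 11 UMIs in 7 of 46 WT cells (30.9 CPM) and 6 UMIs in 6 of 112 HFD cells (16.9 CPM). Of the Neurog3-positive δ-like cells, 10 of 11 in the WT library and 7 of 10 in the HFD library also had a UMI of Hhex, against 46 of 61 and 67 of 163 of all δ-like cells. Cells with both were deeper than cells with neither (medians of 9554 against 5905 UMIs in the WT and 3640 against 3172 in the HFD library), and the part of depth was not tested. The HFD to WT ratio in δ-like cells was 0.475 (0.199 to 1.06), an interval that includes 1. With at most 10% mitochondrial UMIs the levels were 13.8 CPM in the WT and 14.9 CPM in the HFD library, so no direction is given. After thinning to 2000 UMIs, 8.47% of WT (2.81 to 18.7) and 0.649% of HFD δ-like cells (0.0164 to 3.56) had a UMI of Neurog3, and 0 of 53 WT and 0 of 88 HFD immune-like cells did.

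**Figure D1:**
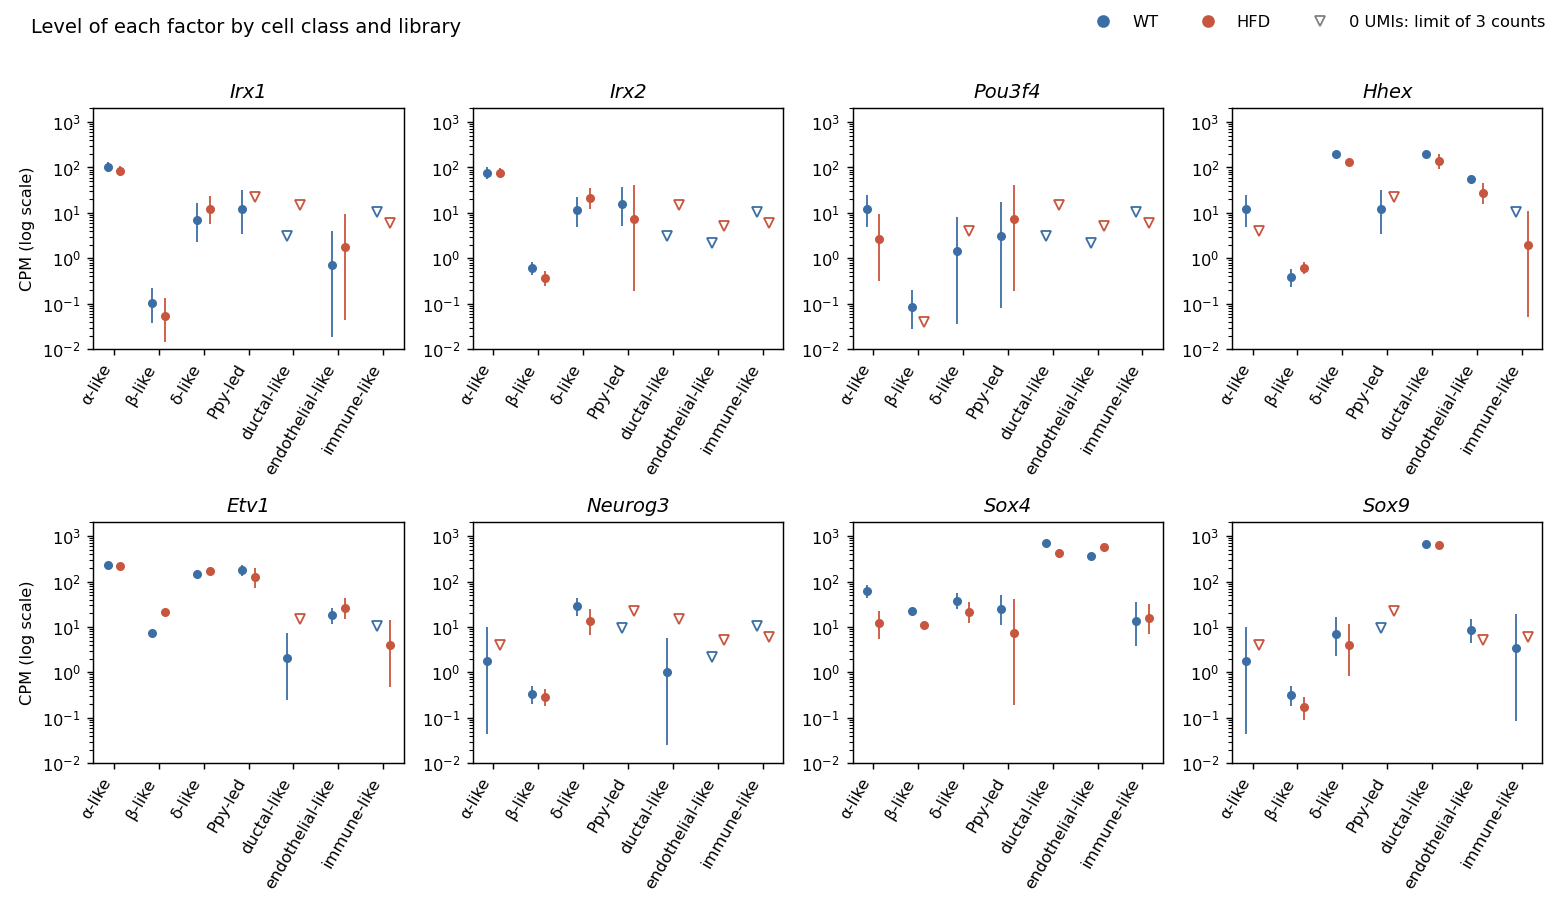
Level of the 8 factors in 7 cell classes, in CPM on a log axis, with WT in blue and HFD in red; points carry 95% Poisson intervals, and open triangles mark classes with 0 UMIs at the limit of 3 counts. Irx1 and Irx2 stand highest in α-like cells, Hhex in δ-like and ductal-like cells, Neurog3 in δ-like cells and Sox9 in ductal-like cells in both libraries, while Etv1 is shared by α-like, δ-like and Ppy-led cells.

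Etv1 was highest across the non-β endocrine classes rather than in a single class. It was lower in β-like cells, at 7.23 CPM in the WT and 21.7 CPM in the HFD library. Its level was 229 CPM in WT α-like cells and 214 CPM in HFD α-like cells, 147 and 174 CPM in δ-like cells, and 178 and 126 CPM in the Ppy-led cluster. The α to δ ratio was 1.56 in the WT library (1.19 to 2.03) and 1.23 in the HFD library (0.972 to 1.57), so α-like cells were higher beyond counting error in the WT library alone. Without second-hormone cells the ratio was 1.31 (0.933 to 1.86) and 1.40 (1.01 to 1.96). The Ppy-led cluster did not differ from δ-like cells beyond counting error in either library (δ to Ppy-led 0.828, 0.593 to 1.16, and 1.38, 0.826 to 2.44). Etv1 was found in 44 of 53 WT and 100 of 162 HFD α-like cells. Endothelial-like cells had 18.0 and 26.1 CPM, ductal-like cells 2 and 0 UMIs, and immune-like cells 0 and 2 UMIs.

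Set against β-like cells, 5 of the 8 factors in WT α-like cells and 6 of the 7 with at least 10 UMIs in WT δ-like cells were at least 10-fold higher, over backgrounds of 2.99% and 3.41% of all genes with at least 10 UMIs. In the HFD library 2 of 7 passed in α-like cells (background 2.55%) and 5 of 7 in δ-like cells (3.85%). These counts include the UMIs of mixed cells, such as those of Irx1 and Irx2 in δ-like cells and of Hhex in WT α-like cells. Without second-hormone cells, Irx1, Irx2, Pou3f4 and Etv1 passed in WT α-like cells (4 of 8, background 3.09%) and Irx1, Irx2 and Etv1 in HFD α-like cells (3 of 7, 2.57%). In δ-like cells Hhex, Etv1, Neurog3 and Sox9 then passed in the WT library (4 of 6, 4.31%) and Irx2, Hhex, Neurog3 and Sox9 in the HFD library (4 of 6, 4.71%), where Irx2 and Sox9 rested on 2 UMIs each and Sox9 in the WT library on 2. The ratio of Etv1 in all α-like to all β-like cells was 31.7 in the WT library and 9.86 in the HFD library. In ductal-like cells Hhex, Sox4 and Sox9 passed in both libraries (backgrounds 11.5% and 9.39%). In the Ppy-led cluster 4 of 7 WT and 1 of 6 HFD members passed (2.57% and 2.05%), and in endothelial-like cells 3 of 6 and 2 of 6 (14.0% and 12.7%). The HFD pass in the Ppy-led cluster was Irx2 on 1 UMI. In the WT Ppy-led cluster Irx1, Irx2 and Hhex rested on 4, 5 and 4 UMIs. Without second-hormone cells, Irx1 and Hhex had 0 UMIs there. The pass of Sox9 in WT endothelial-like cells rested on 12 UMIs in 2 cells.

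Sox9, the ductal progenitor factor, marked ductal-like cells, at 675 CPM in the WT library (625 to 729; 49 of 57 cells) and 620 CPM in the HFD library (516 to 740; 26 of 32 cells), a ratio of 0.919 (0.752 to 1.11). In β-like cells it had 18 UMIs in 14 WT cells and 13 UMIs in 10 HFD cells, and α-like cells had 1 and 0 UMIs. Sox4 was broader. Ductal-like cells had 695 CPM in the WT and 415 CPM in the HFD library, endothelial-like cells 371 and 565 CPM, and the endocrine classes between 7.43 and 61.2 CPM. Duct was higher than endothelium in the WT library (1.87-fold, 1.67 to 2.11), and lower in the HFD library (ratio 0.734, 0.570 to 0.937). In the ductal-like class 46 of 57 WT and 21 of 32 HFD cells had UMIs of both Sox9 and Sox4, and 39 and 16 had both Sox9 and Hhex.

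Whether β-like cells expressed the factors above the RNA of other cells was asked next. For each other class, the share of its RNA carried by β-like cells was estimated from a tracer gene, such as Gcg for α-like and Sst, the somatostatin gene, for δ-like cells, and the member's level in that class was multiplied by it and summed over classes. HFD β-like cells carried 247 CPM of Gcg and 224 CPM of Sst, or 0.0745% and 0.224% of the level in α-like and δ-like cells. In the HFD library 4 of the 8 factors lay above this other-cell level, with the lower bound of their interval above it: Irx2, Etv1, Neurog3 and Sox4. In the WT library 5 did, the same 4 and Pou3f4, the last on 5 UMIs. The counting error of the other-cell level itself was not part of these calls. Irx1, Hhex and Sox9 did not exceed it in either library. Which factors were above depends on how the other-cell level is set. With immune-like cells in its place, HFD β-like cells lost Sox4 and gained Irx1 and Sox9, and with barcodes under 500 genes they lost Irx2 and gained Irx1, in each case gaining genes that had 0 UMIs in the reference.

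For Etv1 and Sox4 the margin over the other-cell level from tracers was wide. Etv1 had 1645 UMIs in 1276 of 5547 HFD β-like cells (21.7 CPM, 20.7 to 22.8) against an other-cell level of 0.893 CPM, and 418 UMIs in 312 of 1789 WT cells (7.23 CPM, 6.56 to 7.96) against 0.843 CPM. Sox4 had 826 UMIs in 696 HFD cells (10.9 CPM, 10.2 to 11.7) against 1.43 CPM, and 1298 UMIs in 715 WT cells (22.5 CPM, 21.3 to 23.7) against 2.54 CPM. Immune-like cells of the HFD library had Sox4 at 15.9 CPM (6.87 to 31.3; 8 UMIs), and HFD β-like cells were not above that class. After thinning to 2000 UMIs, Etv1 was found in 1.41% of WT (0.912 to 2.07) and 4.04% of HFD β-like cells (3.54 to 4.60), and in 0 of 53 WT and 1.14% of 88 HFD immune-like cells. Thinned shares for Sox4 were 4.56% and 2.33% in β-like cells, close to the 3.77% and 2.27% in immune-like cells. As immune-like cells held 4 WT and 8 HFD UMIs of Sox4, mostly in B-cell-like and T-cell-like cells, they were not an empty background for this gene. In barcodes under 500 genes, which can hold β-cell debris, Etv1 had 4.77 CPM (WT library) and 16.5 CPM (HFD library). These values lay below the β-like intervals but carry no interval of their own. They came from only 1468750 WT and 1511397 HFD UMIs in all.

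For Irx2 and Neurog3 the excess was measurable and very small. Irx2 had 28 UMIs in 28 HFD β-like cells, 1 in each (0.370 CPM, 0.246 to 0.535), against 0.112 CPM, and 35 UMIs in 32 WT cells (0.606 CPM, 0.422 to 0.842) against 0.118 CPM. None of the 28 HFD cells carried a second hormone above 1%, while 6.25% of the 32 WT cells did. The median Gcg share was 0.00721% in the 28 HFD cells, against 0.00692% in HFD β-like cells without Irx2. In the WT library it was 0.00270% against 0%. Neurog3 had 22 UMIs in 22 HFD β-like cells, 1 in each (0.291 CPM, 0.182 to 0.440), against 0.0304 CPM, and 19 UMIs in 15 WT cells (0.329 CPM, 0.198 to 0.513) against 0.0433 CPM. A second hormone was present in 13.6% of the 22 HFD cells, against 1.29% of HFD β-like cells without Neurog3, and in 0% of the 15 WT cells. Without second-hormone cells Neurog3 kept 19 UMIs in β-like cells of each library (0.335 and 0.256 CPM). Neurog3 was thus met in 0.397% of HFD β-like cells (0.249 to 0.600) and in 0.838% of WT cells (0.470 to 1.38), and after thinning to 2000 UMIs in 0.108% and 0.113%. Immune-like cells had no UMI of either gene, but with 249 HFD cells, of a median of 1684 UMIs, they could not bound so low a level (3 counts are 5.96 CPM). Barcodes under 500 genes, taken as another measure of free RNA, held 3 UMIs of Irx2 in the WT library (2.04 CPM) and 1 in the HFD library (0.662 CPM), and β-like cells were not above these values. Neurog3 had no UMI in them, but with 1468750 WT and 1511397 HFD UMIs in all they could not bound a level under 1 CPM either.

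Irx1 and Hhex in β-like cells did not exceed the level set for other cells. Irx1 had 4 HFD UMIs (0.0529 CPM against 0.0921) and 6 WT UMIs (0.104 CPM against 0.135), and the cells that held them had median Gcg shares of 1.05% and 1.51%, against 0.00692% and 0% in cells without. Hhex had 46 HFD UMIs in 36 cells (0.608 CPM, 0.445 to 0.811) against 0.942 CPM. Of that other-cell level, 0.229 CPM came from B-cell-like cells. This part rests on 1 UMI of Hhex in 38 such cells and on a carried share of 2.11% from the tracer Cd79a. The β-like cells that held Hhex had a median Sst share of 0.824%, against 0% in β-like cells without it. Of the cells with Hhex, 41.7% carried a second hormone above 1%, against 1.07%. In the WT library the 15 cells with Hhex had a median Sst share of 0.597%. Sox9 lay at 0.172 CPM against 1.86 CPM, well under the level expected from ductal-like cells. With Spp1 and Krt19 as ductal tracers, the level expected for Sox9 thus exceeded the one measured. With Sox9 itself as the tracer the other-cell level of Hhex was 0.563 CPM in the HFD library, a value inside the interval of Hhex. The 0.229 CPM from B-cell-like cells is still in that value, and without it the level would lie below the interval of Hhex. The HFD reading of Hhex thus depended on the ductal tracer and on that 1 UMI.

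**Figure D2:**
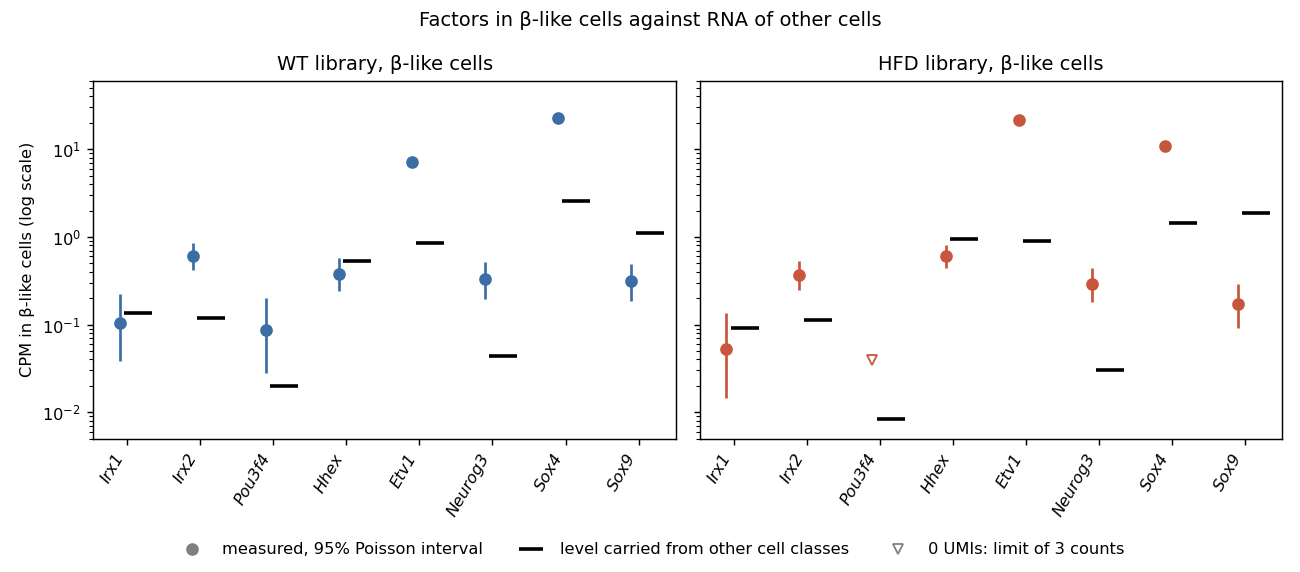
Level of each factor in β-like cells (circles with 95% Poisson intervals, CPM on a log axis) beside the level that RNA carried from other cell classes would give (black bars), WT on the left and HFD on the right. Etv1 and Sox4 lie far above the bars, Irx2 and Neurog3 above them at under 1 CPM, and Irx1, Hhex and Sox9 do not exceed them; the open triangle marks Pou3f4, with 0 UMIs in HFD β-like cells.

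β-cell maturity genes were read in the cells that had a UMI of a factor and in those that had none. Mafa stood lower in both libraries with Neurog3, Irx1, Irx2, Hhex, Etv1 and Sox9. Slc2a2 did so with the same factors except Irx1. Ucn3 did so with Irx1, Irx2, Hhex, Etv1, Sox4 and Sox9, and with Neurog3 in the HFD library only. By direction alone, lower maturity genes were thus not particular to cells with Neurog3, though in the HFD library Mafa was lowest with Neurog3. The values with Irx1 rested on 6 WT and 4 HFD cells, and 41.7% of the HFD cells with Hhex carried a second hormone. The 22 HFD β-like cells with Neurog3 had Ucn3, a marker of mature β cells, at 161 CPM against 173 CPM in cells without, Slc2a2, the glucose transporter GLUT2, at 96.7 against 110 CPM, and Mafa, an insulin gene activator, at 85.9 against 165 CPM. The 15 WT cells with Neurog3 had Ucn3 at 213 against 195 CPM, Slc2a2 at 142 against 199 CPM and Mafa at 248 against 312 CPM. Median depth was 17065 against 11963 UMIs in HFD and 23371 against 28954 UMIs in WT cells. The 1276 HFD cells with Etv1 had Ucn3 at 157 against 180 CPM, Mafa at 148 against 171 CPM and Slc2a2 at 91.9 against 118 CPM, at a median of 15632 against 11147 UMIs. In the WT library, cells with Etv1 had 184 against 198 CPM of Ucn3, 311 against 312 CPM of Mafa and 181 against 203 CPM of Slc2a2. These are descriptions over cells of 1 library each and were not tested.

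Between the libraries, 2 of the 7 factors with at least 10 UMIs in β-like cells passed a 2-fold difference, Etv1 upward and Sox4 downward, where 6.26% of 14225 genes did so in either direction, 3.02% upward and 3.24% downward. Etv1 was 3.01-fold higher in HFD than in WT β-like cells (2.70 to 3.35). Sox4 was lower, at 0.486 of the WT level (0.445 to 0.531). For Irx1 (ratio 0.509, 0.106 to 2.15), Irx2 (0.611, 0.358 to 1.03), Hhex (1.60, 0.941 to 2.79), Neurog3 (0.884, 0.457 to 1.73) and Sox9 (0.552, 0.249 to 1.19) the intervals included 1. As most UMIs of a β-like cell were insulin, a scale without hormone and mitochondrial genes was also used. It lowered every HFD to WT ratio by 0.18 on the log2 scale, to a log2 ratio of 1.41 for Etv1 and -1.22 for Sox4.

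Both differences were also present among the deeper cells of each library. WT β-like cells were deeper, with a median of 28937 UMIs against 11970. Among cells with 15000 to 30000 UMIs, Etv1 stood at 6.71 CPM in 709 WT cells and 22.8 CPM in 1745 HFD cells (ratio 3.40, 2.78 to 4.20), and Sox4 at 26.6 and 10.4 CPM (0.391, 0.340 to 0.451). Above 30000 UMIs the ratios were 3.54 (2.86 to 4.36) and 0.433 (0.313 to 0.585). Below 10000 UMIs the WT library had only 100 and 55 cells in the 2 ranges, and the intervals of both genes included 1. With barcodes limited to 15000 UMIs and clustered again, which left 154 WT β-like cells, the log2 ratio of Etv1 was 0.91, under the 2-fold line. The β-like cells of the libraries also fell largely into different clusters, as 8 clusters with 3656 of the 5547 HFD cells held 65 of the 1789 WT cells. The 10 clusters that held at least 20 cells of each library all had more Etv1 in HFD cells, by 1.53-fold to 4.50-fold with a median of 2.49-fold, with an interval above 1 in 9. All 10 had less Sox4, at 0.326 to 0.937 of the WT level with a median of 0.644, and with an interval below 1 in 4. Summed over these 10 clusters (1724 WT and 1891 HFD cells), Etv1 was 2.41-fold higher in HFD (2.08 to 2.78) and Sox4 was at 0.603 of the WT level (0.530 to 0.684), so Sox4 no longer passed 2-fold.

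**Figure D3:**
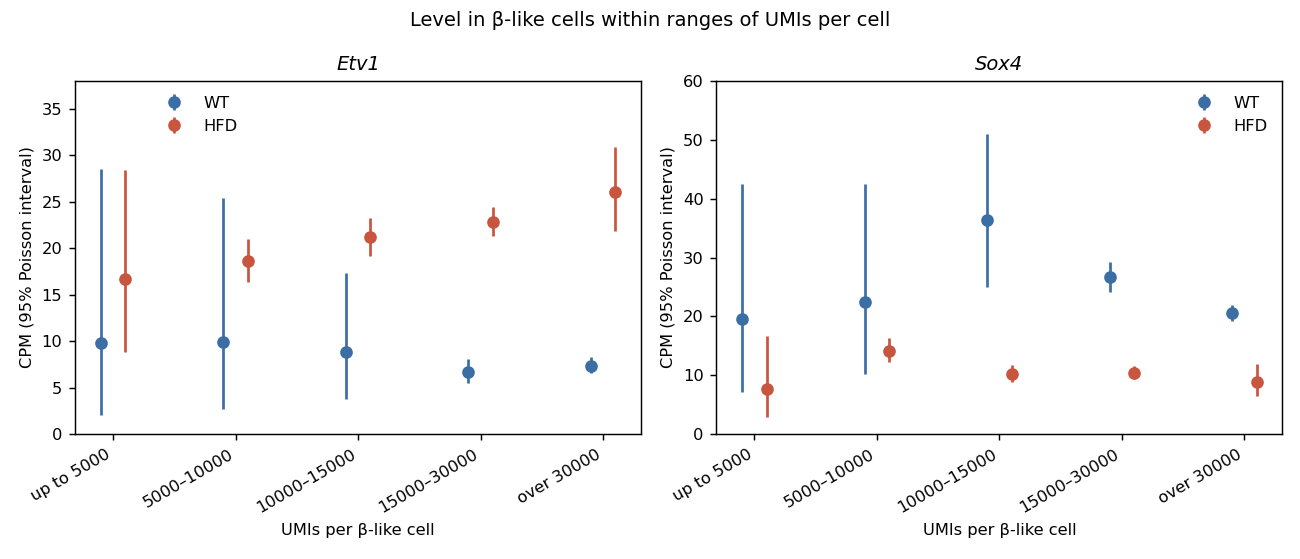
Etv1 (left) and Sox4 (right) in β-like cells, in CPM with 95% Poisson intervals, within 5 ranges of UMIs per cell, WT in blue and HFD in red. Etv1 lies higher and Sox4 lower in the HFD library in every range, with wide intervals for the few WT cells below 15000 UMIs.

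Etv1 passed 2-fold in β-like cells and in no other endocrine class. The HFD to WT ratio was 0.936 in α-like cells (0.739 to 1.19), 1.18 in δ-like cells (0.904 to 1.55) and 0.710 in the Ppy-led cluster (0.387 to 1.24), and each of these intervals lay below that of β-like cells, while that of endothelial-like cells (1.45, 0.712 to 2.87) overlapped it. With 1 library per diet, the difference between classes was not tested. Sox4 moved down in α-like cells as well (35 UMIs in WT and 9 in HFD, ratio 0.196, 0.0828 to 0.416) and in ductal-like cells (0.598, 0.470 to 0.752), and up in endothelial-like cells (1.53, 1.32 to 1.76). In δ-like cells it was 0.585 (0.293 to 1.13).

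**Figure D4:**
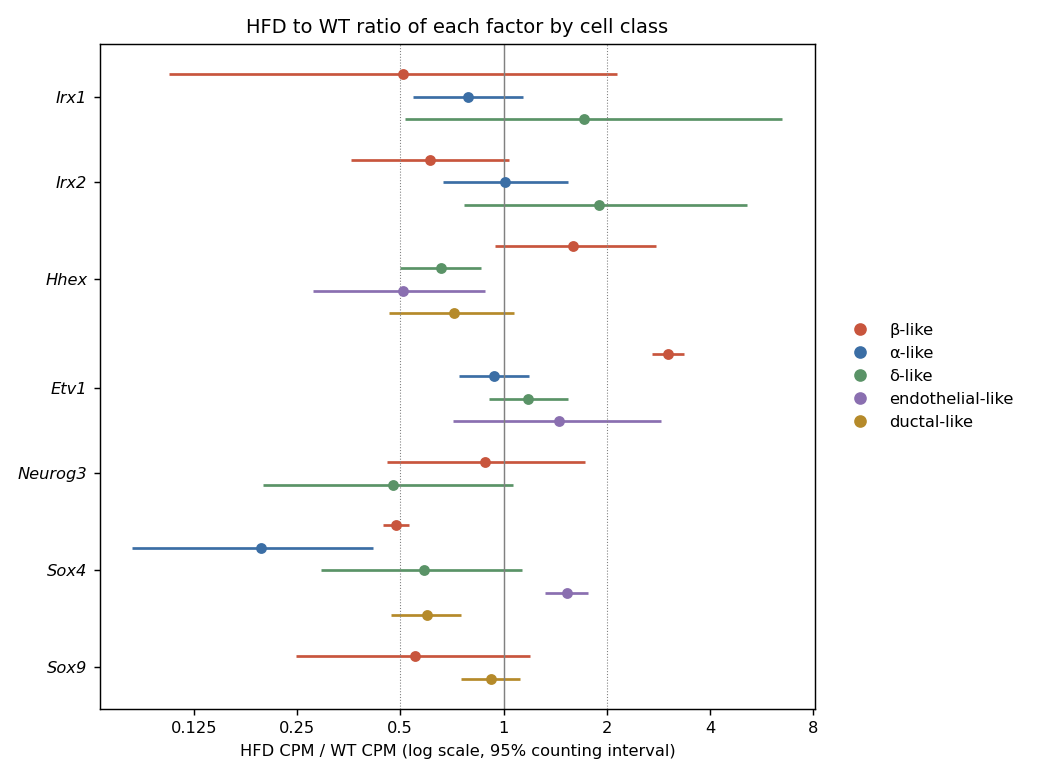
HFD to WT ratio of CPM for each factor with at least 10 UMIs in β-like, α-like, δ-like, endothelial-like or ductal-like cells, on a log axis, with 95% counting intervals; colours mark the class, the solid line 1 and the dotted lines 2-fold. Etv1 in β-like cells lies at 3.01, above the α-like and δ-like intervals, and Sox4 lies below 1 in 4 of these 5 classes and above it in endothelial-like cells.

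The wider programme of these factors was read in β-like cells from 4 lists of genes. Of 10 pan-endocrine factors, none passed 2-fold, and their median log2 ratio was -0.20, against -0.01 over all genes. The interval lay below 1 for 8 of the 10, and the lowest ratio was that of Foxa2 (0.612, 0.571 to 0.656). Pax6, Isl1 and Insm1, which keep endocrine identity, changed less. They stood at 98.9, 71.6 and 97.1 CPM in WT and at 86.9, 63.4 and 87.2 CPM in HFD cells. Of 9 progenitor factors, Onecut1, Pax4 and Ptf1a had no UMI in β-like cells of either library and Nkx6-3 had 1 and 2. Of the other 5, only Fev passed, with 18 WT and 8 HFD UMIs, and it did not once cells with a second hormone were left out (10 and 7 UMIs, log2 ratio -0.91). Hes1, a Notch target that represses Neurog3, stood at 4.15 and 2.95 CPM. None of the 5 Notch pathway genes with at least 10 UMIs passed, Notch1 standing at 4.01 and 2.79 CPM.

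Of 15 relatives of the 8 factors, 11 had no UMI in β-like cells of the WT library, and 3 had at least 10 UMIs in both libraries together. Etv5, the closest relative of Etv1 among them, was 2.15-fold higher in HFD β-like cells (1.92 to 2.40; 7.58 CPM in WT and 16.3 CPM in HFD), and Sox12, a relative of Sox4, stood at 5.31 and 5.10 CPM. On the scale without hormone and mitochondrial genes the log2 ratio of Etv5 was 0.92, under the 2-fold line. In α-like cells Etv5 had 0 WT UMIs and 16 HFD UMIs (21.3 CPM, 12.2 to 34.6, in 15 of 162 cells). Irx3, a relative of Irx1 and Irx2, was found in endothelial-like cells (43.8 and 99.2 CPM) and had 0 UMIs in α-like cells of both libraries.

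Genes with the most similar pattern were ranked by Pearson correlation of log2(CPM + 1) over 17 points, each a cell class of at least 20 cells in 1 library, among 12150 genes. The points share libraries, depth and RNA carried between cells, so the values are descriptions. Irx2 was nearest to Ndst4 (r = 0.990), Aard (0.979) and Eef1a2 (0.978), and Irx1 to Gpld1 (0.857). Neurog3 was nearest to Bmp3 (0.995), Cntn3 (0.956) and Cdhr2 (0.955). Hhex was nearest to Cd24a (0.932), Etv1 to Map1b (0.904), Sox4 to Ctnnb1 (0.922), Sox9 to Ptp4a1 (0.917) and Pou3f4 to Sv2b (0.911). Pou3f4 and Sox9 had under 20 UMIs in the endocrine classes of a library, and their rank rests on few counts.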

How the data were processed

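Single-cell RNA libraries of pooled islets from 4 WT and 4 HFD mice were analysed. The deposited values are raw UMI counts per gene and barcode, which the authors made with Cell Ranger 3.0.2 on mm10; their library size maximum had not been applied to them. Barcodes with at least 500 genes and at most 20% mitochondrial UMIs were kept, with no UMI maximum, and those with the highest Scrublet doublet scores were left out (0.8% per 1000 barcodes; the automatic threshold marked 11 WT and 0 HFD barcodes and was not used). Cells were clustered in scanpy 1.11.5 (2000 variable genes without hormones and the 8 factors, 50 components, 15 neighbours, Leiden resolution 2, both libraries together). Clusters mixing islet hormones were clustered again with hormones included. The naming rule was adjusted after leading genes were seen, and 203 WT and 303 HFD cells stayed unnamed. The 8 factors were named by design. The 3 most similar genes per factor were ranked, and relatives and pathway genes came from companion lists, 1 of which is not reported here. Members and lists were chosen with earlier results of these data known. A class was summed per library. Sums carry exact Poisson intervals, shares Clopper-Pearson intervals and ratios exact conditional intervals at 95%. Library totals were 73843674 UMIs in WT and 94375138 in HFD. Calls were 2-fold between libraries or 10-fold between classes at 10 or more UMIs. The 2-fold rule was tried on simulated β-like sums with counting error alone, which holds no other difference between libraries. The 10-fold rule was not simulated. Alternatives varied the filters, doublets, resolution, scaling and other-cell level. Positions are from GENCODE vM21.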

Additional observations from a re-analysis of the deposited data

Results flagged for a closer look

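Sox4 moved in opposite directions in different cell classes between the libraries. The HFD to WT ratio was 1.53 in endothelial-like cells and 0.486 in β-like, 0.196 in α-like and 0.598 in ductal-like cells, each with a counting interval on its own side of 1. The α-like value compares different clusters, since 47 of 53 WT and 161 of 162 HFD cells came from separate ones. With 1 library per diet the difference between the classes was not tested.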

How the results depend on the processing

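No paired analysis was possible because each group held 1 library. The number of factors above the other-cell level in HFD β-like cells was 4 or 5 under 12 alternatives, with different members where immune-like cells or barcodes under 500 genes set that level. In WT β-like cells it was 5 and ranged from 3 to 7, the 7 with immune-like cells as the other-cell level, most of whose values were 0. It fell to 3 with at most 15000 UMIs per barcode, where Irx2 and Pou3f4 were lost and 154 WT cells remained. The number past 2-fold in β-like cells was 2, and became 4 with at most 15000 UMIs (Irx2, Neurog3, Sox4 and Sox9 lower, Etv1 no longer counted), 4 with no doublets left out and 4 on the scale without hormone and mitochondrial genes (in both, Irx1 and Sox9 lower beside Etv1 and Sox4). The log2 ratio of Etv1 ranged from 0.91 to 1.66 and that of Sox4 from -1.46 to -1.03 over 11 alternatives, and neither changed sign. That of Hhex ranged from -0.73 to 0.68 and that of Neurog3 from -2.38 to 0.29, so no direction is given for them. In δ-like cells Hhex ranged from 119 to 312 CPM in the WT and from 115 to 221 CPM in the HFD library, and Neurog3 from 13.8 to 42.1 and from 12.5 to 21.4 CPM. Leaving out cells with a second hormone, gating classes by hormone and using Sox9 as a tracer were added after the data were seen. Counts under about 10 UMIs, as for Pou3f4 and Irx1 in β-like cells, set the limit of depth.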

Other observations

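Clusters left unnamed because they mixed β-cell genes with Sst and Ppy held Neurog3 and Hhex above the level of β-like cells. A cluster of 104 WT cells, with a median of 41647 UMIs per cell and median shares of 48.4% insulin and 1.38% Sst, had 48 UMIs of Neurog3 in 28 cells (11.0 CPM, 8.10 to 14.6) and 126 of Hhex in 59 cells (28.8 CPM, 24.0 to 34.3). A cluster of 127 HFD cells, with a median of 14798 UMIs, 47.2% insulin and 1.42% Sst, had 13 UMIs of Neurog3 in 12 cells (6.51 CPM, 3.47 to 11.1) and 62 of Hhex in 39 cells (31.1 CPM, 23.8 to 39.8). Whether these barcodes held 1 cell or a β-like and a δ-like cell together was not tested.

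Among relatives of the factors, Sox8, Sox10, Irx4, Irx5 and Irx6 had no UMI in β-like cells of either library. Glis3, a factor that mature β cells keep from the progenitor stage, stood at 11.7 CPM in WT β-like cells and at 11.6 CPM in those of the HFD library, and at 79.3 and 75.1 CPM in ductal-like cells.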
